A study of Mus musculus with 15 samples.

Results

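The mitosis, kinetochore and condensin genes described here are 55 genes whose products carry a cell from mitotic entry through chromosome segregation to cytokinesis. They were taken by gene symbol from a fixed list and are 55 of the 26263 named genes in the deposited count files. All 55 had a row in every file and passed the low-count filter, and all are followed in 15 RNA-seq libraries of mouse neural stem and progenitor cells. The cells came from the dorsal telencephalon, the part of the embryonic forebrain that forms the cerebral cortex, at embryonic day 12.5. They were expanded as neurospheres, free-floating colonies of dividing cells fed with EGF and FGF.

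The groups differ in Kat6b, a gene for a histone acetyltransferase of the MYST family that acts in forebrain development. KO_B6 denotes 4 libraries of homozygous Kat6b knockout cells (Kat6b-/-) on a C57Bl/6 background, and WT_B6 denotes 3 wild-type libraries on that background, replicates 1, 2 and 4. Tg_FvB denotes 6 libraries of cells with a Kat6b transgene, Tg(Kat6b), on a mixed FvB/BalbC background, and WT_FvB denotes 2 wild-type libraries on the mixed background. The second background was used because, by the series design, transgenic mice did not survive on an inbred one. Which exons the knockout lacks and which promoter drives the transgene is not stated in the sources used here. KO_B6 came from litters 843 (replicates 1 and 2) and 929 (replicates 3 and 4), and WT_B6 replicates 1, 2 and 4 from litters 844, 843 and 929. Tg_FvB replicates 1 and 2 and both WT_FvB libraries came from litter 844, and Tg_FvB replicates 3 to 6 from litter 873.

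Total counts ran from 12336303 to 62819028 per library, and every KO_B6 library (at least 39413502) was deeper than every WT_B6 library (at most 31067022). Some labels conflict. All 6 Tg_FvB titles read knockout, against a transgenic genotype field, and in the files replicates 5 and 6 of Tg_FvB bear wild-type column headers. WT_B6 replicate 1 has the litter and embryo numbers of WT_FvB replicate 2. Groups were taken from the genotype field. Several libraries of 1 group were nearly identical, although the labels give them different embryos and often different litters. The 3 WT_B6 libraries, KO_B6 replicates 2 and 3, both WT_FvB libraries and Tg_FvB replicates 1 to 3 varied between each other with a biological coefficient of variation of 0.0172 to 0.0502, against 0.124 to 0.273 in all other pairs of 1 group. They still differed by more than counting noise, with a chi-square of 2.10 or more per gene, so they were kept as separate libraries. Nothing says that they came from separate cultures, and p-values may therefore measure only technical spread between them. Neural stem and radial glia markers summed to 7310 to 8900 CPM in KO_B6 and 8860 to 8880 CPM in WT_B6, and to 6830 to 10000 CPM in Tg_FvB and 7020 to 7210 CPM in WT_FvB. CPM is the usual count scaled to library size, here after TMM scaling between libraries. The 7 microglia and blood markers summed to 3.03 to 3.48 CPM in KO_B6 and 1.27 to 1.42 CPM in WT_B6, and to no more than 3.74 CPM elsewhere, with 6 of them under 1 CPM in every library and Hbb-bs at 0. The 8 vascular and mesenchymal markers summed to 8.07 to 12.6 CPM in KO_B6 and 7.14 to 7.47 CPM in WT_B6, and to 9.30 to 22.5 CPM in Tg_FvB and 16.7 to 18.3 CPM in WT_FvB. In RNA from bulk cultures, a change in the number of cells of a type and a change in RNA per cell cannot be told apart.

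Kat6b itself (gene identifier 54169, chr14:21499216-21672478 in GRCm38, the assembly of mm10) was lower in KO_B6 than in WT_B6, but most of its reads remained. It had 61.0, 64.1, 66.1 and 62.3 CPM in KO_B6, against 85.1, 84.1 and 83.5 CPM in WT_B6. The groups did not overlap, and the log2 fold change of -0.41 ± 0.17 (SE) missed the threshold in the edgeR quasi-likelihood F-test with Benjamini-Hochberg adjustment (adjusted p = 0.0571). It was called with RLE size factors (adjusted p = 0.0453), DESeq2, the replicate block and the compared libraries alone. It was not called with litter as a covariate (adjusted p = 0.143) or without the low-count filter (0.0556). Nor was it called with any 1 KO_B6 or WT_B6 library left out (0.0623 to 0.12). Leaving out single Tg_FvB or WT_FvB libraries was not examined for this contrast. With near-identical libraries summed, which leaves 1 WT_B6 library, its log2 fold change was -0.46. The transgene was plain: Kat6b averaged 243 ± 54.2 CPM in Tg_FvB (SD, n = 6) and 53.1 ± 1.80 CPM in WT_FvB (SD, n = 2), 4.57-fold higher (adjusted p = 0.000238 in the same test). Tg_FvB replicates 5 and 6, the libraries headed as wild types, had 139.6 and 289 CPM, both far above WT_FvB. Replicate 5 was the lowest of the 6 transgenic libraries.

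Cells make the products of these genes mostly in the second part of the cell cycle. Cyclin A and cyclin B with the kinase Cdk1 start mitosis, condensin and topoisomerase II compact the chromosomes, and kinetochores attach them to a spindle shaped by kinesin motors. The spindle checkpoint holds the anaphase-promoting complex in check until every kinetochore is attached, after which separase cuts cohesin and a central spindle directs cytokinesis. Many such genes are known to be controlled as a group through promoter elements named CHR and CCAAT box, which bind the MuvB complexes (DREAM in resting cells, MYBL2 and FOXM1 in dividing cells) and the factor NF-Y. Their mRNAs are scarce in cells that have left the cell cycle, such as neurons.

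Most members were higher in Kat6b knockout cells, by less than 2-fold. Between KO_B6 and WT_B6, 47 of the 55 rose and none fell, where 24.8% of all 15261 genes tested rose and 20.9% fell (45.8% changed either way). The call is an adjusted p under 0.05 in the edgeR quasi-likelihood F-test with Benjamini-Hochberg adjustment over all genes tested. At an unadjusted p under 0.05 the counts were 49 higher and 0 lower, where 8056 of all 15261 genes were under it in either direction. DESeq2 called 47 higher and 0 lower. The median log2 fold change of the members was 0.43, or 1.35-fold, against 0.02 over all genes tested. It ranged from -0.13 for Cdc25b to 0.73 for Birc5. Only 6 members exceeded 1.5-fold and none reached 2-fold. The called members ran from 0.20 for Ube2c to 0.73 for Birc5 on the log2 scale, at a median SE of 0.09 over the 55. The summed CPM of the 55 genes in KO_B6 was 1.31 ± 0.0791 times the WT_B6 mean (SD, n = 4).

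The libraries separated as well as the averages did. In 47 members (85.5%) every KO_B6 library lay above every WT_B6 library, where this held for 29.3% of all genes tested, and in 1 member, Cdc25b, every KO_B6 library lay below, against 27% of all genes. Within litter 843 both knockout embryos were above their wild-type littermate in 50 members, with a median log2 ratio of 0.42 (41.7% of all genes tested were above), and below in 1 (38.7% of all genes). Within litter 929 the same held for 51 members, with a median of 0.40 (44.6% of all genes tested), and 1 member was below (41.2% of all genes). Across these litters, WT_B6 replicates 2 and 4 and KO_B6 replicates 2 and 3 were nearly identical. Their biological coefficients of variation were 0.0172 and 0.0269, so the litters may not be independent. With litter as a covariate, 45 members were called higher. When the near-identical libraries were summed, 3 KO_B6 libraries and 1 WT_B6 library were left. The log2 fold change stayed positive in 53 members with a median of 0.38. The calls of the members were lost, as were nearly all calls among the other genes. The number of calls thus depended on counting near-identical libraries separately.

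**Figure D1:**
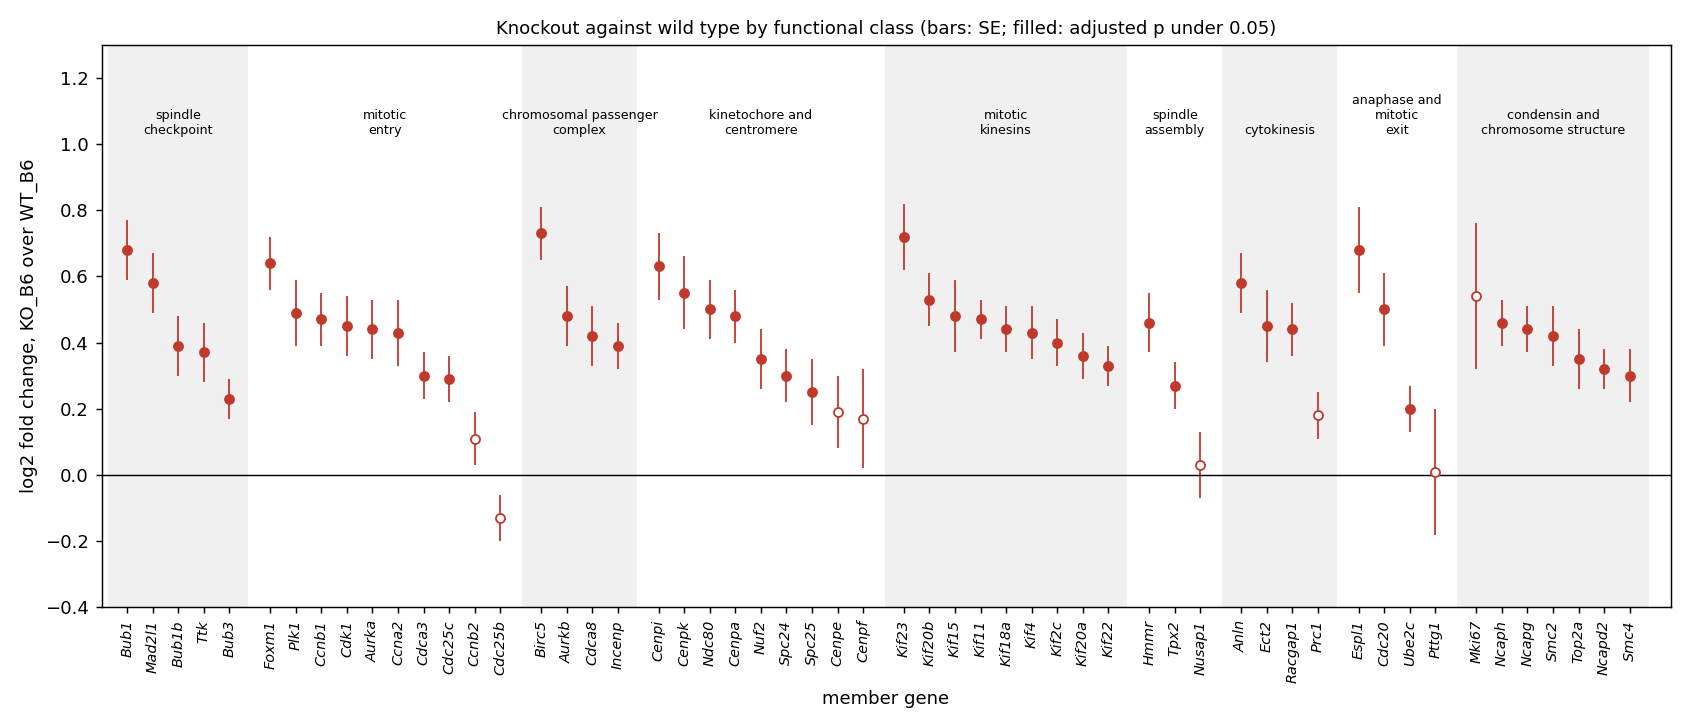
Log2 fold change of each of the 55 members in KO_B6 over WT_B6 (4 and 3 libraries), ordered by size within 9 functional classes; bars are SE and filled points have an adjusted p under 0.05. The points lie between -0.13 and 0.73, with 47 filled, and the 8 open points are spread over 6 classes.

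The promoters of the members share short sequences that the choice by symbol did not use. RefSeq promoters, 250 bases before to 50 bases after each transcript start in GRCm38.p6, matched 46 of the 55 members by gene identifier. The members without an entry were Aurkb, Ccna2, Cdc25c, Foxm1, Incenp, Kif20a, Smc4, Spc24 and Tpx2. A CHR element (TTTGAA or TTCGAA, either strand) occurred in 35 of the 46 (76.1%), against 21.7% of all 27025 genes with a promoter of this length. A CCAAT box (CCAAT, either strand) occurred in 34 (73.9%), against 41.1% of all genes, and both elements in 30 (65.2%), against 8.61%. An E2F site (TTTGGCGC, TTTCCCGC, TTTGGCGG or TTTCCCGG, either strand) occurred in 5 (10.9%), against 3.79%. Matches of different motifs were counted separately where they overlapped.

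The elements also had a common placement. Matches were counted in every listed promoter, in members and in all genes. A site in overlapping promoters of the same gene was counted in each, as in Ect2, Prc1 and Bub3. Of the 52 CHR matches, 24 (46.2%) began after the transcript start, against 11.4% of CHR matches in all genes, so that with the 250 bases before the start alone the share of members with a CHR was 39.1%, against 19.6%. Of the 83 CCAAT matches, 52 (62.7%) lay in the 100 bases before the start, against 43.6% in all genes. A CHR beginning within 100 bases downstream of a CCAAT box was found in 26 members (56.5%), at a median of 28 bases from first base to first base, against 3.38% of all genes. Members that rose and members that were not called both held the elements. CHR occurred in 30 of the 38 risen members with a promoter and in 5 of the 8 others, and CCAAT boxes in 28 and 6. A match is a description of letters and not evidence of a bound site.

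The 150 bases before the start are printed for 8 members, 5' to 3' on the gene's own strand, with CHR, CCAAT and E2F matches in capitals. Birc5, Bub1 and Espl1 had the largest rise of their classes, Cdk1, Cdc20 and Ube2c are core cell-cycle members with different arrangements, and Ccnb2 and Pttg1 were not called. These 8 were chosen after their values were seen.
Birc5: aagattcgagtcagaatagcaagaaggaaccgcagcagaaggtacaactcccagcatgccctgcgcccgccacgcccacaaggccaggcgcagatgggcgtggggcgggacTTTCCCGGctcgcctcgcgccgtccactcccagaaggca
Bub1: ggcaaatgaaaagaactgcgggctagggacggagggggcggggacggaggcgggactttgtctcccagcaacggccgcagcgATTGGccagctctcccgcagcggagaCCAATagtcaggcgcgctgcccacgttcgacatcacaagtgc
Espl1: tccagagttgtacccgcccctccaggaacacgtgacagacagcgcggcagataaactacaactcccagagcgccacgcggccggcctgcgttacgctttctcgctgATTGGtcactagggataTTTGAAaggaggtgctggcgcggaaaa
Cdk1: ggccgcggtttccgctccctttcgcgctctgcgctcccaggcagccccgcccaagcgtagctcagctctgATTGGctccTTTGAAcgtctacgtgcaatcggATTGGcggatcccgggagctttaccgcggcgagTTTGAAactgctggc
Cdc20: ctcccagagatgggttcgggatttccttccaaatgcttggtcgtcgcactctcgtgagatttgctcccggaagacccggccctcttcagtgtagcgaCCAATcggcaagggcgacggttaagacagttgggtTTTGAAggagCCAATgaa
Ube2c: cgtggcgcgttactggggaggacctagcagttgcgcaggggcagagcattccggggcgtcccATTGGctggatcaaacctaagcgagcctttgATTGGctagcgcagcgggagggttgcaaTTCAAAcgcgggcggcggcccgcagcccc
Ccnb2: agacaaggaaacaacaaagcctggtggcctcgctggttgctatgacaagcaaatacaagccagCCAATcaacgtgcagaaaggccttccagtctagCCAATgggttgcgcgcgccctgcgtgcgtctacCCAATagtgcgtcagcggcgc
Pttg1: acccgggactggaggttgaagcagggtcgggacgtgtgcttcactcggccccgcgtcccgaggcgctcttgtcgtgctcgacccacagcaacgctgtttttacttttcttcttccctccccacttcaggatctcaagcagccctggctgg
The windows, in GRCm38.p6, are chr11:117849087-117849236 (plus strand) for Birc5, chr2:127831860-127832009 (minus) for Bub1, chr15:102296143-102296292 (plus) for Espl1 and chr10:69352913-69353062 (minus) for Cdk1. Those of the other 4 are chr4:118437344-118437493 (minus) for Cdc20, chr2:164769779-164769928 (plus) for Ube2c, chr9:70421555-70421704 (minus) for Ccnb2 and chr11:43425982-43426131 (minus) for Pttg1. Cdk1, Cdc20, Espl1 and Ube2c show a CHR downstream of a CCAAT box inside the window, with the Ube2c element on the opposite strand. Bub1 and Ccnb2 show CCAAT boxes only. The CHR element of Bub1 begins 15 bases after the start, and those of Ccnb2 lie outside the window on either side, at position -167 and 5 bases after the start. Birc5, which rose most, shows neither element and has an E2F match at position -39. The Pttg1 window holds none of the motifs. It lies inside the annotated span of the gene, chr11:43420244-43427463, so the bases before the outermost 5' end of Pttg1 were not searched. The searched windows of Aurka, Cdc25b, Cdca3, Ect2, Kif2c and Ncapd2 likewise lie inside their genes.

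**Figure D2:**
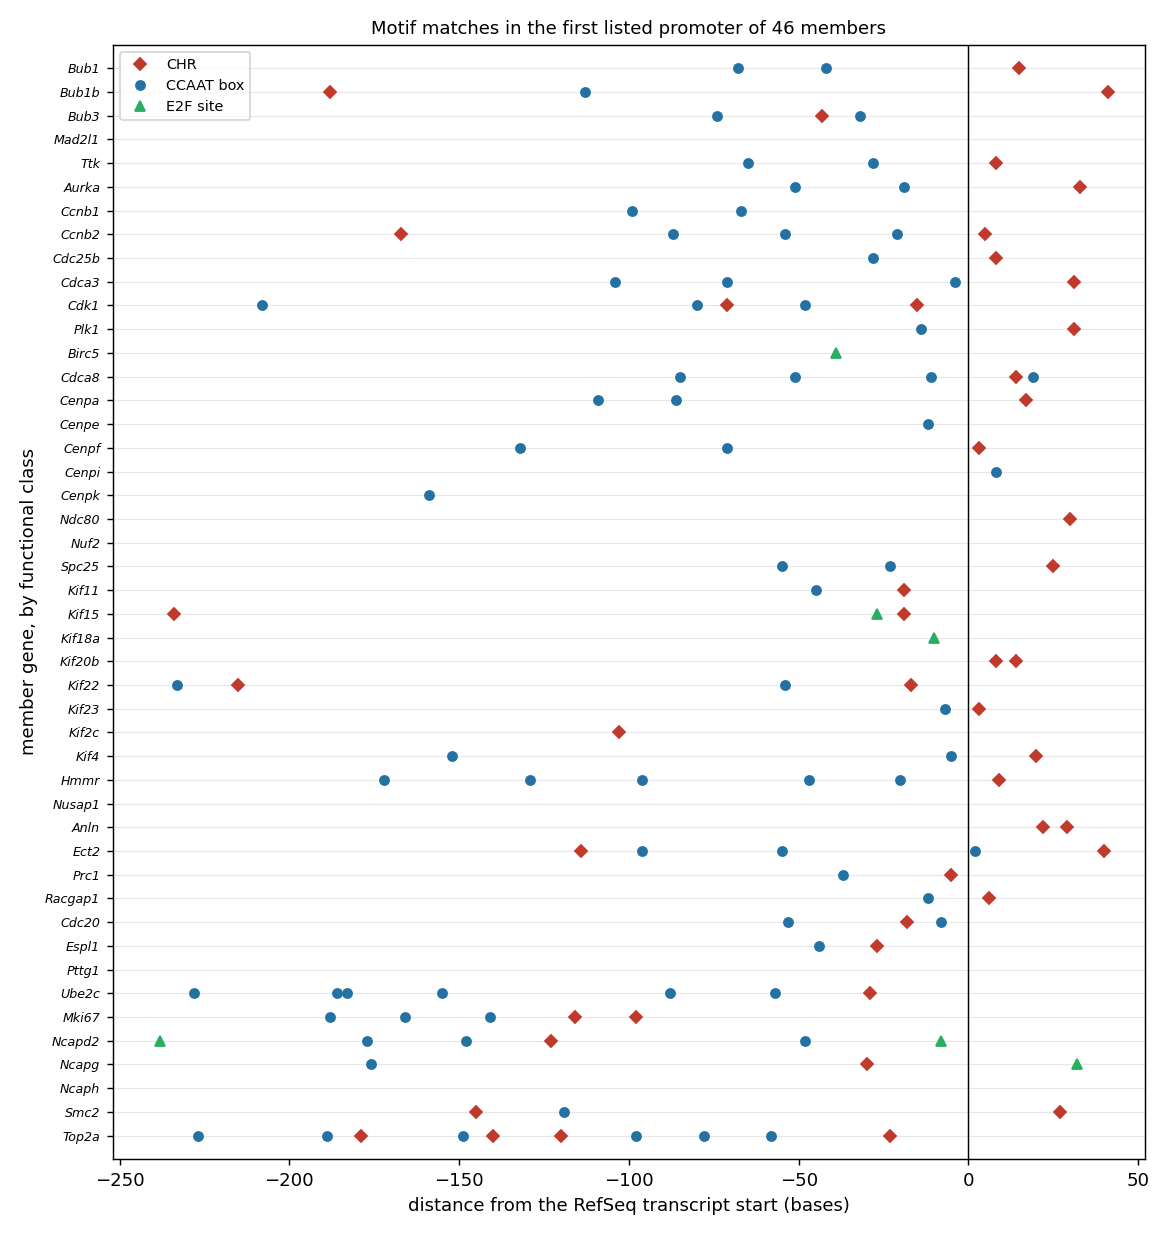
Positions of CHR, CCAAT box and E2F matches relative to the RefSeq transcript start (x axis, bases) in the first listed promoter of each of the 46 members with an entry (y axis, ordered by class). CCAAT boxes gather in the 100 bases before the start and CHR elements around and after it.

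All 5 spindle checkpoint genes rose, with a median log2 fold change of 0.39. Bub1, a kinase that recruits other checkpoint proteins to unattached kinetochores, changed most of them. It had 141, 139, 145 and 136 CPM in KO_B6, against 83.5, 89.6 and 89.8 CPM in WT_B6. The groups were far apart relative to their spread, and the log2 fold change was 0.68 ± 0.09 (SE; adjusted p = 6.56e-05, edgeR quasi-likelihood F-test, Benjamini-Hochberg adjustment). Bub3, the adaptor that holds Bub1 and Bub1b at the kinetochore, had the highest level per length of the class, 71.3 CPM per kilobase of annotated gene length averaged over the 15 libraries, and moved least. It had 157, 167, 165 and 149 CPM in KO_B6 and 138, 134 and 136 CPM in WT_B6, without overlap (log2 fold change 0.23 ± 0.06, adjusted p = 0.00455, same test). Log2 fold changes between these were found for Mad2l1, the Mad2 protein that blocks Cdc20, at 0.58, Bub1b, the BubR1 subunit of the inhibitory complex, at 0.39, and the Mps1 kinase gene Ttk at 0.37.

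Of the 10 mitotic entry genes 8 rose. Foxm1, the transcription factor that drives late cell-cycle genes, had 226, 223, 209.7 and 208 CPM in KO_B6, against 142, 139 and 137 CPM in WT_B6. Its log2 fold change of 0.64 ± 0.08 was the largest of the class (adjusted p = 3.55e-05, edgeR's quasi-likelihood test, Benjamini-Hochberg adjustment). Ccna2, the cyclin of S and G2 phase, had the highest level per length, 126 CPM per kilobase. It had 401, 394, 410.3 and 342 CPM in KO_B6 and 286, 288 and 289 CPM in WT_B6, with KO_B6 replicate 4 the lowest knockout but still above all wild types (log2 fold change 0.43 ± 0.10). The core mitotic kinase and its partners rose to a like degree, Cdk1 by 0.45, Ccnb1 by 0.47, the polo-like kinase gene Plk1 by 0.49 and the Aurora A gene Aurka by 0.44 on the log2 scale. Smaller log2 fold changes were seen in Cdca3, a trigger of mitotic entry, at 0.30, and in the Cdk1-activating phosphatase gene Cdc25c at 0.29.

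The remaining 2 entry genes did not follow. Ccnb2, a second B-type cyclin, had 94.2, 103, 104 and 80.5 CPM in KO_B6, against 84.4, 90.8 and 90.3 CPM in WT_B6, so that replicate 4 lay below all wild types and the other 3 knockouts lay above them (log2 fold change 0.11 ± 0.08, adjusted p = 0.257 in the edgeR quasi-likelihood F-test with Benjamini-Hochberg adjustment). Cdc25b, the phosphatase that starts Cdk1 activation and was the 1 member with a negative value, had 73.0, 80.5, 77.8 and 80.2 CPM in KO_B6 and 83.4, 87.6 and 85.2 CPM in WT_B6. All 4 knockouts lay under the wild types, with a log2 fold change of -0.13 ± 0.07 that was not called (adjusted p = 0.14, same test). With the 7 B6 libraries alone in the fit it was called lower.

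The chromosomal passenger complex, which corrects faulty attachments and later acts in cytokinesis, rose in all 4 subunits with a median log2 fold change of 0.45. Birc5 encodes survivin, the subunit that places the complex at the inner centromere. It had 119, 117, 116 and 112 CPM in KO_B6, against 69.4, 71.4 and 69.5 CPM in WT_B6, a log2 fold change of 0.73 ± 0.08 or 1.65-fold (adjusted p = 1.68e-05, edgeR quasi-likelihood F-test, Benjamini-Hochberg adjustment). This was the largest rise among the 55 members. Cdca8, the borealin subunit and the most abundant per length at 92.8 CPM per kilobase, had 157, 166, 160.5 and 156 CPM in KO_B6 and 122, 117 and 118 CPM in WT_B6 (log2 fold change 0.42 ± 0.09). The kinase subunit Aurkb rose by 0.48 and the scaffold Incenp by 0.39 on the log2 scale.

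Among 9 kinetochore and centromere genes 7 rose, with a median log2 fold change of 0.35. Cenpi, part of the inner kinetochore network on centromeric chromatin, changed most. It had 67.8, 71.3, 71.2 and 65.0 CPM in KO_B6, against 44.5, 44.0 and 44.5 CPM in WT_B6 (log2 fold change 0.63 ± 0.10, adjusted p = 0.000159, edgeR quasi-likelihood F-test, Benjamini-Hochberg adjustment). Cenpa, the histone H3 variant that marks the centromere, had the highest level per length, 92.7 CPM per kilobase. Its libraries had 129, 154, 155 and 141 CPM in KO_B6 and 106, 102 and 104 CPM in WT_B6, again without overlap (log2 fold change 0.48 ± 0.08). Cenpk, another inner subunit, rose by 0.55 on the log2 scale. The 4 subunits of the Ndc80 complex, the rod that grips the microtubule, rose by 0.50 (Ndc80), 0.35 (Nuf2), 0.30 (Spc24) and 0.25 (Spc25) on the same scale, the last with an adjusted p of 0.0492 in edgeR's quasi-likelihood test. Spc24 overlapped between the groups because KO_B6 replicate 4, at 41.1 CPM, lay below WT_B6 replicate 1, at 41.6 CPM.

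The 2 that were not called were Cenpe, a plus-end kinesin of the kinetochore, and Cenpf, a large protein of the outer kinetochore. Cenpf had 186, 289, 294 and 238 CPM in KO_B6, against 208, 233 and 231 CPM in WT_B6. Replicate 1 was below all wild types and the other 3 above, and the log2 fold change was 0.17 ± 0.15 (adjusted p = 0.381, edgeR quasi-likelihood F-test, Benjamini-Hochberg adjustment). Cenpe had a log2 fold change of 0.19 ± 0.11 (adjusted p = 0.16, same test), with 167.6 CPM in KO_B6 replicate 1, below 2 of the 3 wild types. Cenpf, Mki67 and Cenpe have the longest annotated lengths of the members, 11130, 10075 and 7813 bases. KO_B6 replicate 1 was the lowest knockout library and Tg_FvB replicate 6 the lowest transgenic library in each of them. The part of length in these values was not tested.

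All 9 mitotic kinesins rose, with log2 fold changes of 0.33 to 0.72. Kif23, the motor of centralspindlin that bundles the central spindle, changed most. It had 121, 127, 128 and 124 CPM in KO_B6, against 74.6, 76.6 and 76.3 CPM in WT_B6 (log2 fold change 0.72 ± 0.10, 1.65-fold, adjusted p = 8.19e-05 in the edgeR quasi-likelihood F-test with Benjamini-Hochberg adjustment). The knockouts lay close together, and so did the wild types. Kif22, a chromokinesin that pushes chromosome arms toward the equator, was the most abundant per length, 67.7 CPM per kilobase, and had the smallest rise. It had 152, 166, 162 and 154 CPM in KO_B6 and 127, 122 and 128 CPM in WT_B6 (log2 fold change 0.33 ± 0.06). Kif11, the Eg5 motor that drives spindle poles apart, had 426, 432, 439 and 432 CPM in KO_B6 and 292, 320.2 and 322 CPM in WT_B6 (log2 fold change 0.47 ± 0.06). The other log2 fold changes were Kif20b at 0.53, Kif15 at 0.48, Kif18a at 0.44, Kif4 at 0.43, the microtubule depolymerase gene Kif2c at 0.40 and the central-spindle motor gene Kif20a at 0.36.

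Of the 3 spindle assembly genes 2 rose. Hmmr, whose product organises spindle microtubules, had 191, 218, 224 and 209 CPM in KO_B6, against 144, 159 and 157 CPM in WT_B6 (log2 fold change 0.46 ± 0.09, adjusted p = 0.000621, edgeR quasi-likelihood F-test, Benjamini-Hochberg adjustment). Tpx2, the activator of Aurora A on the spindle, rose by 0.27 on the log2 scale. Nusap1, a microtubule-bundling protein and the most abundant per length at 78.1 CPM per kilobase, had 235, 221, 230.0 and 201 CPM in KO_B6, against 201, 225 and 226 CPM in WT_B6. These ranges overlapped almost wholly, with a log2 fold change of 0.03 ± 0.10.

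Of the 4 cytokinesis genes 3 rose. Anln, the anillin scaffold of the contractile ring, had 128, 143, 146 and 131 CPM in KO_B6, against 88.8, 92.9 and 93.7 CPM in WT_B6 (log2 fold change 0.58 ± 0.09, adjusted p = 0.000127, edgeR quasi-likelihood F-test, Benjamini-Hochberg adjustment). Ect2, which activates RhoA at the furrow, rose by 0.45, and Racgap1, the partner of Kif23 in centralspindlin, by 0.44 on the log2 scale. Prc1, the bundler of antiparallel microtubules, had the highest level per length, 113 CPM per kilobase. It had 328, 333, 335 and 318 CPM in KO_B6 and 276, 300.1 and 292 CPM in WT_B6, without overlap, but its log2 fold change of 0.18 ± 0.07 missed the threshold (adjusted p = 0.059, same test).

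Of the 4 genes of anaphase and mitotic exit 3 rose. Espl1, the separase that cleaves cohesin, had 102, 122, 118 and 110.5 CPM in KO_B6, against 74.1, 69.4 and 68.7 CPM in WT_B6 (log2 fold change 0.68 ± 0.13, adjusted p = 0.000679, edgeR quasi-likelihood F-test, Benjamini-Hochberg adjustment). Cdc20, the coactivator that the checkpoint restrains, rose by 0.50 on the log2 scale. Ube2c, the ubiquitin-conjugating enzyme of the anaphase-promoting complex, had the highest level per length of all 55, 193 CPM per kilobase. It had 186, 205, 205 and 176 CPM in KO_B6 and 168, 170.4 and 167 CPM in WT_B6, a log2 fold change of 0.20 ± 0.07 (adjusted p = 0.0264, same test). Pttg1, the securin that keeps separase inactive, did not move with Espl1. It had 19.2, 19.0, 17.3 and 23.9 CPM in KO_B6, against 21.5, 18.0 and 20.0 CPM in WT_B6, overlapping throughout (log2 fold change 0.01 ± 0.19).

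Of the 7 condensin and chromosome structure genes 6 rose. All 5 condensin genes did so: the shared ATPase subunits Smc2 by 0.42 and Smc4 by 0.30, and the condensin I subunits Ncapd2 by 0.32, Ncapg by 0.44 and Ncaph by 0.46 on the log2 scale. Top2a, the topoisomerase that untangles sister chromatids, was the most abundant of the class per length, 171 CPM per kilobase. It had 962, 1037, 1057 and 895 CPM in KO_B6, against 728, 799 and 802 CPM in WT_B6 (log2 fold change 0.35 ± 0.09, adjusted p = 0.0047, edgeR quasi-likelihood F-test, Benjamini-Hochberg adjustment). Mki67, the Ki-67 protein that coats mitotic chromosomes and a common marker of dividing cells, had the largest fold and the largest spread of the class. It had 512, 954, 959 and 771 CPM in KO_B6 and 529.8, 560.1 and 558 CPM in WT_B6, so that replicate 1 lay below every wild type and the other 3 well above. Its log2 fold change of 0.54 ± 0.22 missed the threshold (adjusted p = 0.0521, same test), and it was called higher without KO_B6 replicate 1.

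**Figure D3:**
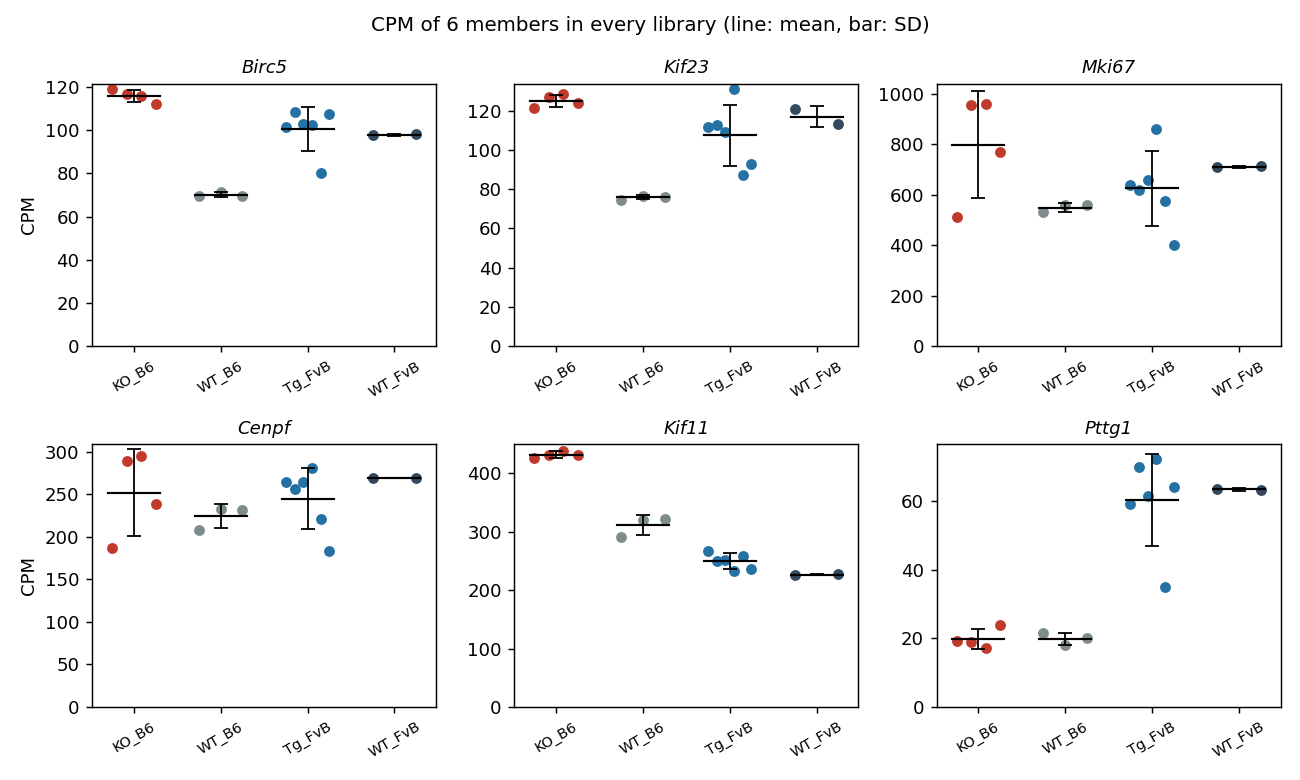
CPM (y axis, from 0) of 6 members in every library of the 4 groups, with the group mean as a line and the SD as a bar. Birc5 and Kif23 separate KO_B6 from WT_B6 fully, Mki67 and Cenpf have 1 knockout library below the wild types, Kif11 is lower in both FvB groups than in the B6 groups, and Pttg1 is higher there.

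Within KO_B6 the level of the members varied by library. Replicate 4 was the lowest of the 4 in 35 of the 55 members (27% of all genes tested). Replicate 1 was the lowest in 19 of the 55, near its share of all genes (33.8%), and the highest in 9 (35.8% of all genes). The mean log2 ratio of the 55 genes to the WT_B6 mean was 0.45 in replicates 2 and 3, 0.35 in replicate 1 and 0.33 in replicate 4. All 4 lay above the 3 WT_B6 libraries, at -0.03, 0.02 and 0.02. Some marker sums also separated the groups. The 6 astrocyte markers summed to 471 to 522 CPM in KO_B6, against 813 to 818 CPM in WT_B6. The sums of the 9 neuron markers overlapped, at 1080 to 1200 CPM in KO_B6 and 1190 to 1210 CPM in WT_B6. The 6 oligodendrocyte-lineage markers summed to 1170 to 1260 CPM in KO_B6 and 1020 to 1070 CPM in WT_B6. Their part in the rise of the members, and that of the deeper sequencing of KO_B6, was not tested.

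No member changed detectably when Kat6b was overexpressed. Between Tg_FvB and WT_FvB edgeR's quasi-likelihood test called 0 of the 55 (2 at an unadjusted p under 0.05), and DESeq2 also called 0 (2 at an unadjusted p). Over all genes, 2793 of 15261 were under that unadjusted p in edgeR and 2741 of 15251 in DESeq2. In the whole table few genes were called, 0.688% higher and 1.17% lower (1.85% either way). The median log2 fold change of the members was -0.02, against 0.01 over all genes tested, and their SE was 0.09 at the median. Values ran from -0.21 for Espl1 to 0.25 for Cdca3. Every Tg_FvB library lay above both WT_FvB libraries in 2 members, Cdca3 and Kif11 (7.97% of all genes tested), and below both in 1, Ccnb2 (8.01% of all genes). In litter 844 alone, both transgenic embryos were above both wild types in 25 members and below both in 11, where 34.8% of all genes tested were above and 30.7% below. The astrocyte markers summed to 796 to 1110 CPM in Tg_FvB, against 1390 to 1400 CPM in WT_FvB.

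The values of the entry gene Cdca3 came closest to a call. It had 116.8, 120.0, 111.5, 101.6, 118.2 and 130.2 CPM in Tg_FvB replicates 1 to 6, against 99.8 and 96.8 CPM in WT_FvB (log2 fold change 0.25 ± 0.08, adjusted p = 0.109, edgeR quasi-likelihood F-test, Benjamini-Hochberg adjustment). All 6 lay above both wild types. Espl1 had a lowest, median and highest value of 72.8, 91.7 and 119.5 CPM in Tg_FvB, against 106 and 105 CPM in WT_FvB, which fell inside the transgenic range. Its log2 fold change was -0.21 ± 0.14.

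The members with the largest rise in the knockout showed no like change here. Lowest, median and highest CPM in Tg_FvB were 103, 135 and 144 for Bub1, against 141 and 139.7 CPM in WT_FvB. They were 80.2, 103 and 109 CPM for Birc5, against 97.5 and 98.2 CPM in WT_FvB. For Kif23 they were 87.2, 110.3 and 131 CPM in Tg_FvB, against 121 and 113 CPM in WT_FvB. In all 3 the wild-type values fell inside the transgenic range. Foxm1 had 144, 181 and 192 CPM in Tg_FvB, against 168 and 167 CPM in WT_FvB, and Cenpi 51.5, 70.2 and 75.0 CPM, against 74.7 and 71.3 CPM in WT_FvB. Hmmr had 174, 207 and 232 CPM in Tg_FvB, against 218 and 214 CPM in WT_FvB, and Anln 99.6, 123 and 129 CPM, against 131 and 127 CPM in WT_FvB. Mki67 again had the widest range, 402, 628 and 861 CPM in Tg_FvB, against 709 and 715 CPM in WT_FvB. Tg_FvB replicate 6 was its lowest library and replicate 4 its highest.

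The members most abundant per length in each class behaved alike. Ube2c had a lowest, median and highest value of 158, 182 and 191 CPM in Tg_FvB, against 172 and 172 CPM in WT_FvB, and Top2a 774, 928 and 971 CPM, against 902 and 889 CPM in WT_FvB. Ccna2 had 291, 385 and 416 CPM in Tg_FvB, against 361 and 346 CPM in WT_FvB, and Prc1 303, 369 and 394 CPM, against 366 and 352 CPM in WT_FvB. Cdca8 had 126, 163 and 178 CPM in Tg_FvB, against 157 and 161 CPM in WT_FvB, and Cenpa 101, 125 and 129 CPM, against 119 and 117 CPM in WT_FvB. Each of these transgenic ranges enclosed both wild types. The same was true of Bub3, at 135, 145 and 156 CPM in Tg_FvB against 137 and 144 CPM in WT_FvB. It was true of Kif22, at 118, 139 and 141 CPM against 134 and 134 CPM in WT_FvB, and of Nusap1, at 206, 249.6 and 287 CPM against 233 and 222 CPM in WT_FvB.

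A single transgenic library set the lower end of most of these ranges. Tg_FvB replicate 5 was the lowest of the 6 in 42 of the 55 members, where it was lowest in 22.7% of all genes tested. Relative to the WT_B6 mean, its mean log2 ratio over the members was 0.04, against 0.21 in replicate 6 and 0.30 to 0.34 in replicates 1 to 4, and 0.30 and 0.27 in WT_FvB. It is 1 of the 2 libraries whose count column is headed as a wild type, and it had the lowest Kat6b of the group. Without replicates 5 and 6 the median log2 fold change of the members was 0.02 and again 0 were called in edgeR's quasi-likelihood test. At an unadjusted p under 0.05 there were 4, where 2828 of all 15215 genes tested were under it.

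**Figure D4:**
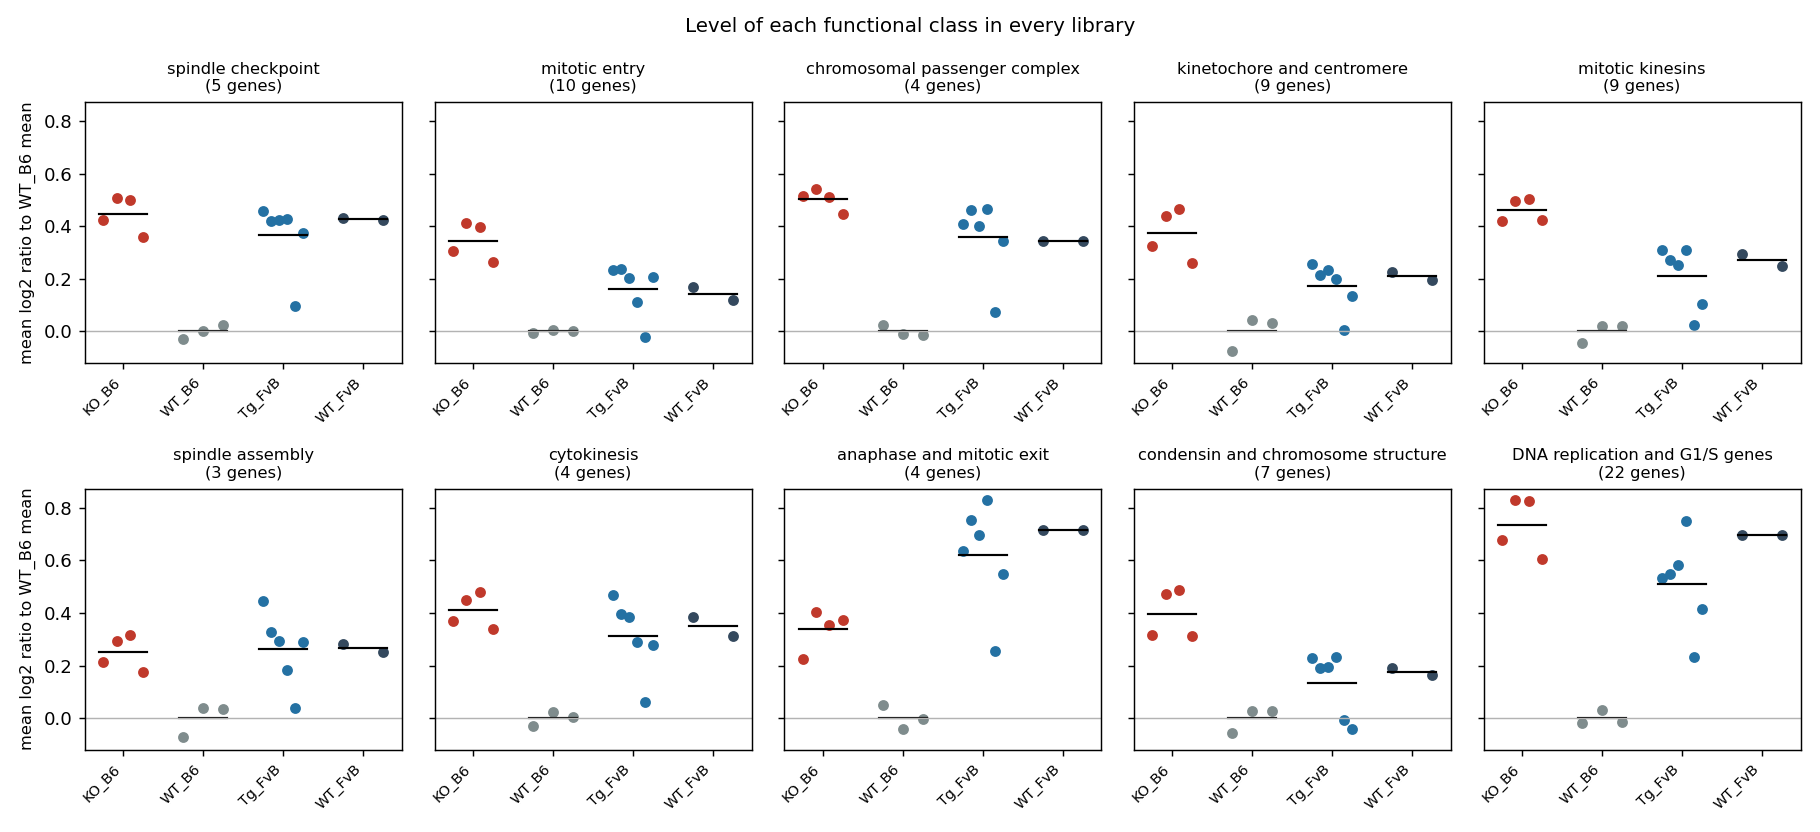
Mean log2 ratio of CPM to the WT_B6 mean (y axis) over the genes of each of the 9 classes and of 22 genes of DNA replication and G1/S, for every library (points) with the group mean (line). KO_B6 lies above WT_B6 in every panel, WT_FvB and most Tg_FvB libraries also lie above WT_B6, and the lowest Tg_FvB point is replicate 5 in every panel except that of condensin and chromosome structure, where it is replicate 6.

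The response of the members to loss of Kat6b on the B6 background differed from their response to its overexpression on the mixed background. Each alteration was present on 1 background only, so alteration and background cannot be told apart in this contrast. The knockout effect (KO_B6 over WT_B6) minus the transgene effect (Tg_FvB over WT_FvB), tested in 1 model, was called higher in 41 of the 55 and lower in none, where 19.5% of all genes tested were called higher and 17.8% lower (37.3% either way). At an unadjusted p under 0.05 there were 46 higher and 1 lower, where 7175 of all 15261 genes were under it in either direction. DESeq2 called 41 higher and 0 lower. All 41 were also called higher in KO_B6 against WT_B6, while the median transgene effect of the members was -0.02. The median difference was 0.44 on the log2 scale. It was largest for Espl1, at 0.89 ± 0.19 (SE; adjusted p = 0.00235, edgeR quasi-likelihood F-test, Benjamini-Hochberg adjustment), Kif23, at 0.85, and Bub1, at 0.79. All 9 kinesins and all 4 passenger subunits were called, as were 4 of 5 checkpoint genes, 6 of 10 entry genes and 6 of 9 kinetochore genes. The 14 not called were Bub3, Ccna2, Ccnb2, Cdc25b, Cdca3, Cenpe, Cenpf, Spc25, Nusap1, Prc1, Ube2c, Pttg1, Smc4 and Mki67.

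This test leaned on few wild-type libraries. Without WT_FvB replicate 1 it called 22 members and without replicate 2 it called 28, all higher. With litter as a covariate it called 12. With near-identical libraries summed, which leaves 1 library in each wild-type group, the calls were lost, with 52 of 55 positive and a median of 0.42.

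**Figure D5:**
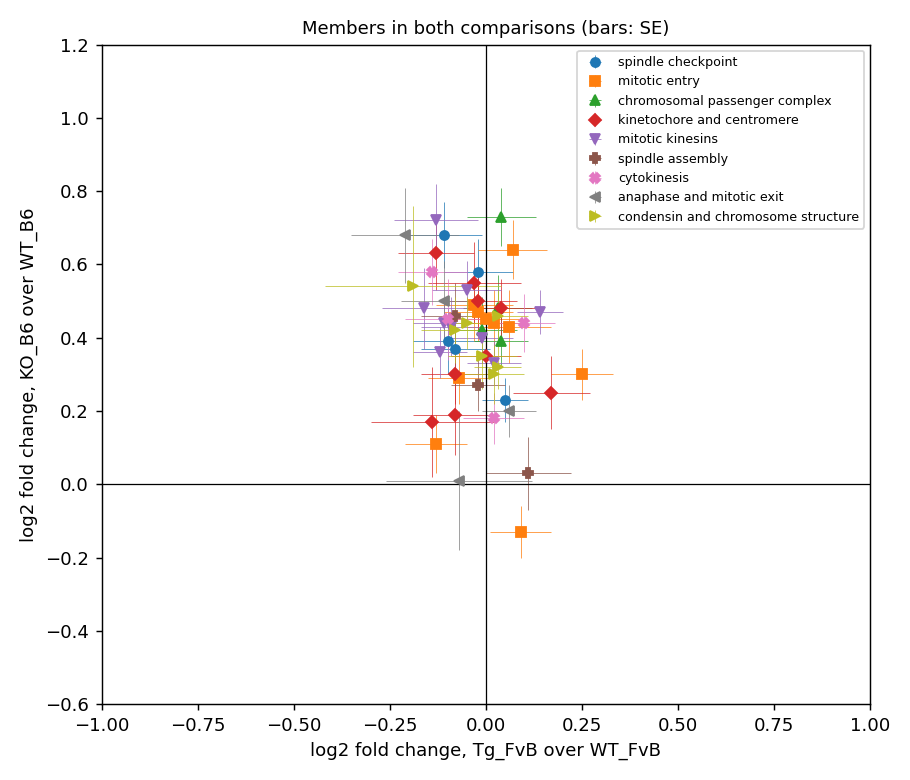
Log2 fold change of the 55 members in KO_B6 over WT_B6 (y axis) and in Tg_FvB over WT_FvB (x axis), with SE as bars and a symbol for each of the 9 classes. Points spread from -0.13 to 0.73 in the knockout and from -0.21 to 0.25 around 0 in the transgenic comparison.

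The wild types of the 2 backgrounds also differed in these genes. Between WT_FvB and WT_B6, 32 members were higher and 4 lower, where 25.4% of all genes tested were higher and 23.5% lower (48.9% either way). The median log2 fold change was 0.30. Without WT_FvB replicate 1 the count of higher members was 18, and without replicate 2 it was 23, with 4 lower in both fits. Both WT_FvB libraries lay above all WT_B6 libraries in 45 members (40.1% of all genes tested) and below in 4 (38.2% of all genes). Background, litter and culture cannot be told apart in this contrast, and it shares the WT_B6 libraries with the knockout comparison, so the 2 sets of values are given side by side only. The WT_FvB mean CPM was nearer the KO_B6 mean in 39 members and nearer the WT_B6 mean in 16. It was above the KO_B6 mean in 13 members. Shares over all genes were not computed for these counts. The 6 astrocyte markers summed to 1390 to 1400 CPM in WT_FvB, against 813 to 818 CPM in WT_B6, and their part in the difference was not tested. Kat6b itself averaged 53.1 CPM in WT_FvB and 84.2 CPM in WT_B6. Its log2 fold change was -0.66 ± 0.21 (SE; adjusted p = 0.0157, edgeR quasi-likelihood F-test, Benjamini-Hochberg adjustment). The part of Kat6b was likewise not tested.

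Pttg1 differed most. It had 63.7 and 63.2 CPM in WT_FvB, against 21.5, 18.0 and 20.0 CPM in WT_B6, a log2 fold change of 1.68 ± 0.22 or 3.20-fold (adjusted p = 7.78e-05, edgeR quasi-likelihood F-test, Benjamini-Hochberg adjustment). Both knockout and wild-type B6 libraries were low in securin, at 17.3 to 23.9 CPM in KO_B6, and Tg_FvB libraries ranged from 34.9 CPM in replicate 5 to 72.2 CPM in replicate 4. Cenpi was higher in WT_FvB by 0.72, Bub1 by 0.68, Kif23 by 0.62 and Cdc20 by 0.61 on the log2 scale.

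The 4 members lower in WT_FvB were Cdc25b (-0.47), Kif11 (-0.46), Cdca3 (-0.44) and Ncapd2 (-0.31). Kif11 had 226 and 227 CPM in WT_FvB, against 292, 320.2 and 322 CPM in WT_B6, without overlap (adjusted p = 0.000176, edgeR quasi-likelihood F-test, Benjamini-Hochberg adjustment). With near-identical libraries summed, which leaves 1 library in each of these groups, the calls were lost. In that fit 49 of 55 values were positive as before, with a median of 0.27.

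Most of the genes outside the 55 that serve the kinetochore, cohesion and the spindle also rose in the knockout, where 24.8% of all genes tested were higher and 20.9% lower. Of 29 other kinetochore and centromere genes, 21 were higher and 1 lower between KO_B6 and WT_B6, with a median log2 fold change of 0.41. Among called genes of that list the largest changes were in Cenpu and Cenpw, inner kinetochore subunits, at 0.73 and 0.56 on the log2 scale. Of 16 condensin II and cohesin genes, 10 were higher and 0 lower (11 and 0 at an unadjusted p under 0.05), with a median of 0.26. Ncapg2, a condensin II subunit, rose by 0.60 and Esco2, an acetyltransferase that establishes cohesion, by 0.51 on the same scale. Of 22 other spindle and cytokinesis genes, 16 were higher and 1 lower (median 0.35), led by Troap and Gtse1, microtubule-associated proteins, at 0.73 and 0.60. The 2 genes of these lists called lower, named after their values were seen, were Zwint, an outer kinetochore protein, at -0.14 and Numa1, a spindle pole protein, at -0.24 on the log2 scale.

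Regulators were counted in the same way, against the same 24.8% higher and 20.9% lower over all genes tested. Of 25 other genes of mitotic entry and the anaphase-promoting complex, 11 were higher and 1 lower, with a median of 0.14. Pkmyt1, an inhibitory kinase of Cdk1, rose by 0.83 and Ube2s, the chain-elongating enzyme of the complex, by 0.63 on the log2 scale. Of 17 DREAM and MuvB regulators, 10 were higher and 2 lower (median 0.31), with Mybl2, the activating partner of MuvB, at 0.75 and the repressor E2f8 at 0.69. The 3 called lower in these lists, likewise named after their values were seen, were the anaphase-promoting complex subunit Anapc2 (-0.19), the MuvB subunit Lin52 (-0.43) and the p130 gene Rbl2 (-0.59). The 22 DNA replication and G1/S genes were all higher, with a median of 0.72, against 0.43 in the 55 mitotic members. E2f1, the S-phase transcription factor, rose by 1.13 and Tyms, thymidylate synthase, by 1.11 on the log2 scale. E2f1 had 35.1, 36.1, 35.5 and 33.7 CPM in KO_B6 and averaged 16.1 ± 0.585 CPM in WT_B6 (SD, n = 3). Between Tg_FvB and WT_FvB edgeR's quasi-likelihood test called 0 of the 131 genes of the 6 lists, and the list medians ran from -0.18 to 0.03. At an unadjusted p under 0.05 there were 17, where 2793 of all 15261 genes tested were under it.

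These lists were read from the same fit as the members. The difference between the knockout and transgene effects was called higher in all 22 replication genes, with a median of 0.95, in 18 of the 29 kinetochore genes (1 lower) and in 14 of the 22 spindle and cytokinesis genes (0 lower). It was called higher in 9 of the 17 DREAM and MuvB regulators (2 lower), in 7 of the 16 condensin II and cohesin genes (0 lower) and in 8 of the 25 genes of entry and the anaphase-promoting complex (1 lower, median 0.12). Over all genes tested, 19.5% were called higher and 17.8% lower. The sequencing kit and counting do not state a strand in the sources used here. The annotated spans of 24 members overlap another gene, 11 of them a protein-coding one (among them Ccna2, Aurka, Foxm1, Kif20a, Nusap1, Prc1 and Cdc20), and reads in the overlaps cannot be told apart.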

How the data were processed

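Total RNA of neurospheres was sequenced in 15 libraries of 66 bp paired-end reads, per the labels. The authors deposited raw read counts per gene with a gene length. Per the submitters' processing notes, bcl2fastq, featureCounts and mouse build mm10 were used; the sources used here state no versions, aligner, annotation or strand setting. In each file, 917 unnamed rows (0.450% to 0.545% of counts) were left out.

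Of 26263 named genes, 15261 passed filterByExpr in edgeR 4.0.16 (R 4.3.3, minimum count 10). All 15 libraries entered 1 quasi-likelihood model with TMM scaling, 1 coefficient per group and no covariates, and p-values were adjusted by Benjamini-Hochberg over all genes tested, with a threshold of 0.05. Contrasts were KO_B6 against WT_B6, Tg_FvB against WT_FvB, the difference of both effects, and WT_FvB against WT_B6. Groups follow the genotype and background fields. Coordinates come from RefSeq GRCm38.p6, matched by gene identifier (96.2% of named genes and all members). The number of libraries and the counts behind each gene limit the precision. The scripts were tested on simulated data.

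Alternatives were RLE size factors, no low-count filter, DESeq2 1.42.0, litter or replicate number as covariate, near-identical libraries summed, the compared libraries alone, and each library left out. The last was read only for contrasts that include the group of the library left out. The promoter search window was varied after the data were seen. Same-numbered replicates did not deviate together (correlations of -0.04 to 0.14), so the numbers do not pair the samples.

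The members, classes and related lists were chosen with earlier results of these data known. Any member could be named; in each class the one with the largest knockout change and the most abundant per length are given in every library. From each related list the 2 called genes with the largest change are named.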

Additional observations from a re-analysis of the deposited data

Results flagged for a closer look

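The knockout effect and the transgene effect differed, by the test of the difference in 1 model (edgeR's quasi-likelihood test, Benjamini-Hochberg adjusted p under 0.05), in 41 members, each with a higher value in the knockout contrast. The values that follow are knockout effect minus transgene effect on the log2 scale. The knockout was on the B6 background and the transgene on the mixed one, so alteration and background cannot be told apart in them. Among checkpoint genes they were 0.79 for Bub1, 0.60 for Mad2l1, 0.49 for Bub1b and 0.45 for Ttk. Among entry genes they were 0.57 for Foxm1, 0.52 for Plk1, 0.49 for Ccnb1, 0.45 for Cdk1, 0.42 for Aurka and 0.36 for Cdc25c. The passenger subunits had 0.69 for Birc5, 0.45 for Aurkb, 0.44 for Cdca8 and 0.36 for Incenp. Kinetochore genes had 0.77 for Cenpi, 0.58 for Cenpk, 0.51 for Ndc80, 0.44 for Cenpa, 0.38 for Spc24 and 0.35 for Nuf2. The kinesins had 0.85 for Kif23, 0.64 for Kif15, 0.58 for Kif20b, 0.55 for Kif18a, 0.52 for Kif4, 0.48 for Kif20a, 0.41 for Kif2c, 0.33 for Kif11 and 0.32 for Kif22. Spindle and cytokinesis genes had 0.54 for Hmmr, 0.30 for Tpx2, 0.71 for Anln, 0.55 for Ect2 and 0.34 for Racgap1. Separase had the largest value of all, 0.89 for Espl1, and Cdc20 had 0.61. Condensin genes and Top2a had 0.50 for Smc2, 0.49 for Ncapg, 0.44 for Ncaph, 0.29 for Ncapd2 and 0.36 for Top2a. Kat6b itself, the altered gene, differed by -2.60.

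Tg_FvB replicate 5 stood far below the other 5 transgenic libraries in several values, by the gap to its nearest neighbour relative to the group's range. It had 80.2 CPM of Birc5, where the other 5 had 101.5 to 109 CPM. It had 100.6 CPM of Cenpa, where the others had 123 to 129 CPM. For Kif22 the values were 118 CPM and 137 to 141 CPM, and for Ube2c 158 CPM and 179 to 191 CPM. Its mean log2 CPM was 6.66 over the checkpoint genes (6.94 to 7.02 in the others) and 6.70 over the passenger subunits (6.97 to 7.09). These were 6 flags in 60 groups of values examined. Chance gives about 1 in 20 among independent groups. These groups share libraries, and the class means include genes examined singly, so the count cannot be set against that rate. This is 1 of the 2 libraries headed as wild type in the files, and it had the lowest Kat6b of the group.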

How the results depend on the processing

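With near-identical libraries summed, which assumes that a lone wild-type library varies like the other groups, 0 members were called in KO_B6 against WT_B6, 0 in the difference of both effects and 0 and 0 (higher and lower) in WT_FvB against WT_B6, and Kat6b in Tg_FvB against WT_FvB had a log2 fold change of 2.12 (adjusted p = 1). The median knockout change of the members was then 0.38, and no called value changed sign under any alternative. Fewer samples entered that fit. With litter as a covariate the difference was called in 12 members, and the cause was not tested. With the compared libraries alone 1 member was called lower in KO_B6, Cdc25b. Kat6b in KO_B6 was called with RLE size factors (-0.44, adjusted p = 0.0453), DESeq2 (-0.44, 0.0282), the replicate block (-0.43, 0.000225) and the compared libraries alone (-0.42, 6.67e-05). It was not called with no low-count filter (adjusted p = 0.0556), litter as a covariate (0.143) or any KO_B6 or WT_B6 library left out (0.0623 to 0.12). With near-identical libraries summed its log2 fold change was -0.46. The replicate block called 49 members higher in KO_B6, 38 in the difference, 34 in WT_FvB against WT_B6 and 1, Cdca3, in Tg_FvB. Each library was left out in turn, and only contrasts that include its group were read. This gave 44 to 48 members higher in KO_B6 and 22 to 44 in the difference. It gave 18 to 29 higher and 4 lower in WT_FvB against WT_B6, and 0 to 1 in Tg_FvB. The lowest counts of the difference and of WT_FvB against WT_B6, 22 and 18, came without WT_FvB replicate 1. Without Tg_FvB replicate 4, 1 member was called in Tg_FvB (Cdca3) and 1 was called lower in the difference (Cdc25b). Calls of Spc25 and Ube2c in KO_B6 were lost most often. With 250 bases before the start, 39.1% of members held a CHR, since CHR matches after the start were then left out.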
